A study of Mus musculus with 6 samples.

Results

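The genes described here are 33 genes of the endoplasmic reticulum (ER) protein folding machinery and the unfolded protein response, chosen by symbol from a list of chaperones, disulfide enzymes, degradation factors, translocon subunits and stress sensors, out of 24956 rows of the expression table. All 33 were in the table, and 32 were among the 11082 genes with enough signal to be tested. They were followed in intestinal organoids of Apc Min mice, cultures of primary intestinal epithelium that carry a truncating allele of the tumour suppressor Apc. Of 6 RNA-seq libraries, 3 came from organoids in control medium and 3 from organoids in low glutamine medium, and both groups carry the Apc Min genotype. The labels give no glutamine concentration, time in the medium, intestinal segment or animal age, and whether the replicates of a group are different animals or repeat cultures of 1 line is not stated. The p-values therefore measure the spread between these libraries, which may be technical.

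Proteins bound for secretion or for membranes enter the ER through the Sec61 channel and fold there with the help of chaperones, of lectins that bind their sugar chains and of enzymes that form disulfide bonds. Proteins that fail to fold are sent back to the cytosol for degradation, a route called ER-associated degradation. Unfolded proteins activate 3 sensors in the ER membrane, IRE1 (Ern1 and, in mucus-secreting gut epithelium, Ern2), ATF6 (Atf6) and PERK (Eif2ak3). IRE1 splices the mRNA of the transcription factor XBP1, ATF6 is itself cut into a transcription factor, and both act on ER folding and degradation genes, while PERK slows translation and raises ATF4. Goblet and Paneth cells, which secrete large amounts of protein, depend on this system in the intestine.

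Many genes of the ATF6 and XBP1 programme are known for a promoter motif called the ER stress response element (ERSE), written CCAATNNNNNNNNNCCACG, in which N is any base. The motif was searched on both strands from 250 bases before to 50 bases after the start of each gene in RefSeq promoters of GRCm38.p6 (mm10), in which 27 of the 33 genes had an entry. It was in 10 of the 27 (37.0%) and in 37 of all 27025 genes with a promoter (0.137%). These were Calr, Canx, Creld2, Derl3, Dnajc3, Ero1lb, Hsp90b1, Hspa5, Pdia6 and Syvn1, with 2 copies in Hsp90b1. Because the list holds genes of the programme that the motif is known from, these shares are a description and no test. A related element, ERSE-II (ATTGGNCCACG), was in Herpud1 and Dnajb11 (7.41% of the 27 genes, 0.0444% of all genes). The core of the XBP1 element, TGACGTG, was in Hspa5 alone among the 27 (3.7%, against 2.22% of all genes). The pentamer CCAAT, which also forms an end of each ERSE and, read on the other strand, of each ERSE-II, was in 22 of the 27 (81.5%, against 41.1% of all genes). The stretches that hold the elements are printed for 6 genes, chosen to include genes without a call (Calr, Hsp90b1), higher (Pdia6, Herpud1) and lower (Hspa5, Syvn1), so that the element can be set beside the expression values. Each runs 5′ to 3′ on the strand of its gene. Capitals mark the ends of the ERSE or ERSE-II, CCAAT and CCACG or their complements CGTGG and ATTGG, and, in Hspa5, also TGACGTG. Hspa5 lies at chr2:34771918-34772058 (plus strand), Hsp90b1 at chr10:86705518-86705671 (minus), Calr at chr8:84847060-84847108 (minus), Pdia6 at chr12:17266476-17266524 (plus), Syvn1 at chr19:6046517-6046565 (plus) and Herpud1 at chr8:94386362-94386402 (plus).
Hspa5: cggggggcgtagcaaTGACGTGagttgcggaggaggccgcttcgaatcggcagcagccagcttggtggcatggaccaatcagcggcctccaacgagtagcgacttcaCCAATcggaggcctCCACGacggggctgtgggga
Hsp90b1: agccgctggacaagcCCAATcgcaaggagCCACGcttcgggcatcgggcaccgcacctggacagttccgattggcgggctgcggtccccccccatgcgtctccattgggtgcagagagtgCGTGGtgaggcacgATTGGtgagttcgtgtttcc
Calr: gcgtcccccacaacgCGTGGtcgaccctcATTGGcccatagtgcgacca
Pdia6: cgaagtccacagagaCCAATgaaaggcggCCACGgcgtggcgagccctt
Syvn1: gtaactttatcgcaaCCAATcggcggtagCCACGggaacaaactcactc
Herpud1: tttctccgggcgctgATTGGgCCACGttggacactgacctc

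The libraries were estimated at 24.4 to 35.4 M (mega) reads in control medium and 28.2 to 34.0 M reads in low glutamine medium. Values are RPKM, reads per kilobase of transcript and per M reads, as deposited by the authors. Differences were tested with limma on log2(RPKM + 1), low glutamine over control, for every gene whose mean over the 6 libraries reached 1 RPKM, and a call means an adjusted p (Benjamini-Hochberg over all genes tested) under 0.05. Pearson correlations across genes were 0.996 to 0.998 for libraries of the same medium and 0.922 to 0.927 across media. The groups also differed in Xist, at 87.3 RPKM in control libraries and 0.029 RPKM in low glutamine organoids, and in the Y-linked Eif2s3y, at 0 RPKM and 27.7 RPKM, so the sex-linked genes separate the groups in the same way as the medium. A difference between the cultures other than the medium therefore cannot be told apart from the medium for any gene, including the 33 genes of the list, which all lie on autosomes. Epithelial markers were high in every library, summing to between 2069 and 2666 RPKM over 7 genes, and immune and stromal markers summed to at most 1.35 and 0.1 RPKM.

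In low glutamine medium the folding genes split in both directions. Of the 32 tested, 16 were lower, 7 were higher and 9 had no call. With the libraries rescaled to a common sum, 12 were lower and 11 higher. With Rn45s, a ribosomal RNA row, left out of that sum, 10 were lower and 12 higher. Over all genes, the share of higher among the calls went from 54.4% as deposited to 69.0% and 71.6% in these settings. No direction is therefore read for the list as a whole. The largest falls were those of Ero1l, Edem1, P4hb and Dnajb9, and the largest rise that of Herpud1. The calls made up 71.9% of the tested members, beside 66.4% of all 11082 genes, so the share of called genes lies near that of the background. Higher calls were 36.1% and lower calls 30.3% of all genes. The median log2 fold change was −0.16 over the 32 genes (range −0.83 to 0.58) and 0.03 over all genes. Of the 32, 4 fell by at least 1.5-fold on the log2(RPKM + 1) scale, which 9.31% of all genes did. On that scale 0 rose by that much, which 9.30% of all genes did. Herpud1 lay just under the bound there, while its low glutamine mean in RPKM was 150.3% of its control mean. The 2 groups of libraries did not overlap for 25 of the 32, with low glutamine below in 16 and above in 9, beside 70.2% of all genes.

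**Figure D1:**
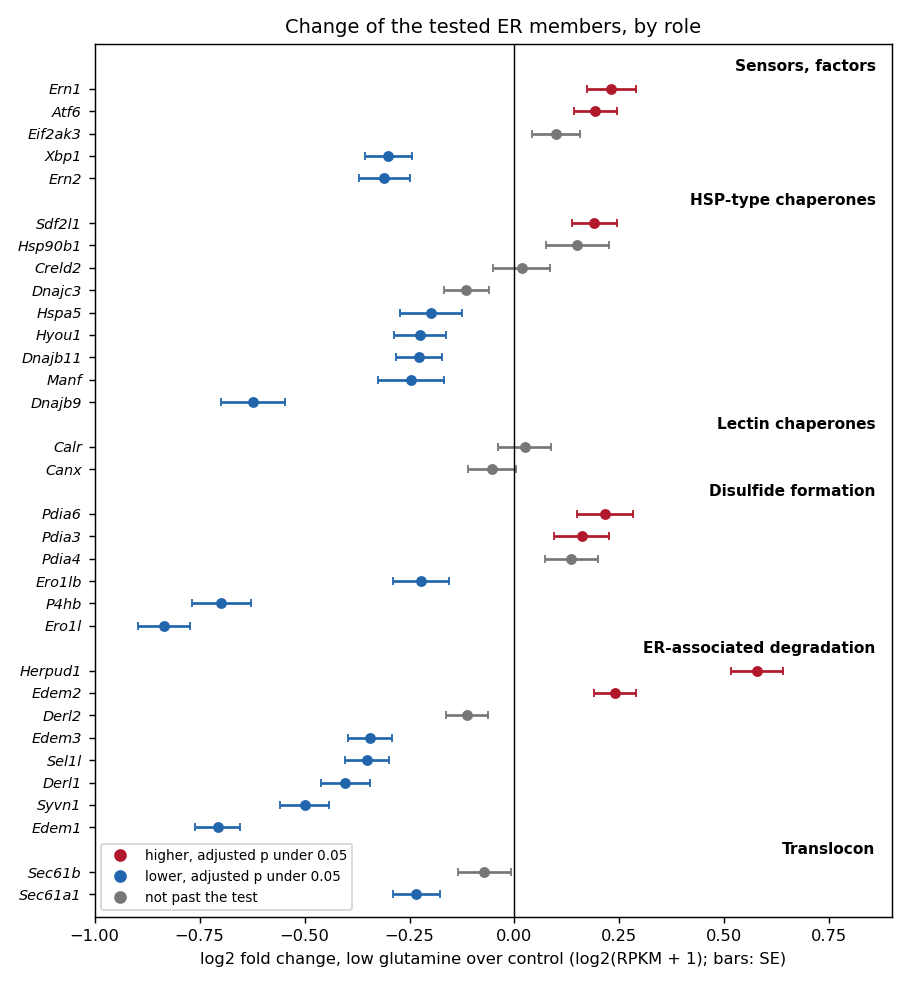
Log2 fold change (low glutamine over control, log2(RPKM + 1)) of the 32 tested genes, grouped by role, with bars of 1 standard error from limma. Ero1l (−0.83), Edem1 (−0.71), P4hb (−0.70) and Dnajb9 (−0.62) lie farthest to the left and Herpud1 (0.58) farthest to the right.

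Among the sensors and factors, the IRE1 paralogs moved in opposite directions. Ern1, the ubiquitous IRE1 alpha, stood at 7.06, 6.90 and 6.22 RPKM in control replicates 1 to 3 and at 7.96, 7.85 and 8.38 RPKM in low glutamine replicates 1 to 3. Every low glutamine library was above every control library, and Ern1 rose by 0.23 ± 0.06 (log2, SE) with an adjusted p of 0.0038 in limma. Ern2, the IRE1 beta of mucus-secreting epithelium, stood at 4.18, 3.58 and 3.84 RPKM in control libraries and at 2.96, 2.99 and 2.82 RPKM in low glutamine libraries. The groups were again apart, and Ern2 fell by 0.31 ± 0.06 (limma, adjusted p = 7.6e-04). The log2 ratio of Ern2 to Ern1 was −0.67 ± 0.11 (SD, n = 3) in control and −1.21 ± 0.08 in low glutamine libraries. An exact two-sided permutation test of that ratio gave p = 0.10, the smallest that 3 against 3 libraries can give, and 0.11 after Benjamini-Hochberg adjustment over the 11 pairs of family members compared.

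Goblet cell markers fell alongside Ern2. All 7 tested of 8 goblet genes were lower, and their summed level was 1733 to 2078 RPKM in control libraries and 808 to 903 RPKM in low glutamine libraries, with Retnlb at or near 0 throughout. Enterocyte markers summed to 1313 to 1444 RPKM and to 164 to 175 RPKM (7 of 8 lower, Alpi higher). Paneth markers summed to 1043 to 1075 RPKM and to 1423 to 1575 RPKM (6 of 6 higher), and enteroendocrine markers to 309 to 316 RPKM and to 1375 to 1573 RPKM (8 of 8 higher). The part of these shifts in the changes of the folding genes was not tested. In bulk organoids, fewer cells of a type and less RNA per cell cannot be told apart. Of 7 plasma cell markers, Sdc1, which epithelium also expresses, was at 55.0 to 73.9 RPKM, while Jchain, Mzb1, Tnfrsf17 and Cd79a were each at or below 0.114 RPKM in every library. Pou2af1 was at 0.52 to 0.60 RPKM in control and 0.66 to 0.83 RPKM in low glutamine libraries and Prdm1 at 0.23 to 0.32 and 0.37 to 0.44 RPKM, both without overlap and below the level for testing.

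Atf6, the sensor that becomes a transcription factor, stood at 9.54, 9.04 and 9.04 RPKM in control libraries and at 10.5, 10.4 and 11.1 RPKM in low glutamine libraries. It rose by 0.19 ± 0.05 with no overlap (limma, adjusted p = 0.0057). Eif2ak3, which encodes PERK, stood at 5.82, 5.41 and 5.69 RPKM and at 6.03, 5.80 and 6.52 RPKM, overlapped between groups and had no call (0.10 ± 0.06, limma adjusted p = 0.14). Under a common sum, with and without Rn45s, Eif2ak3 was called higher at 0.21 and 0.23 (limma, adjusted p = 0.0027 and 0.0014). Xbp1, the transcription factor made from the mRNA that IRE1 splices, stood at 98.3, 98.1 and 93.3 RPKM in control libraries and at 77.1, 75.9 and 81.8 RPKM in low glutamine libraries. Xbp1 was lower in all 3 low glutamine libraries and fell by 0.30 ± 0.06 (limma, adjusted p = 4.6e-04). Values per gene do not show which share of Xbp1 mRNA was spliced.

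The chaperones of the HSP class and their partners included 5 falls, 1 rise and 3 genes without a call. Among all genes tested, 30.3% were called lower and 36.1% higher. Hspa5, which encodes BiP, the main HSP70 of the ER, stood at 227, 215 and 229 RPKM in control libraries and at 188, 180 and 217 RPKM in low glutamine libraries. The groups overlapped, through low glutamine replicate 3. Hspa5 passed the test at −0.20 ± 0.07 (limma, adjusted p = 0.031) and kept the call in 9 of the 17 other settings tried. Without control replicate 1 or 3, or low glutamine replicate 1 or 2, its adjusted p in limma was 0.10, 0.081, 0.11 and 0.13. Under a common sum, with and without Rn45s, Hspa5 was at −0.073 and −0.045 with no call, and after quantile normalization its sign turned to 0.06. Hsp90b1, which encodes GRP94, the HSP90 of the ER, stood at 234, 218 and 235 RPKM in control libraries and at 245, 236 and 283 RPKM in low glutamine libraries. The libraries did not overlap, but the difference had no call (0.15 ± 0.07, limma adjusted p = 0.098). With the replicate number as a block the same difference had an adjusted p of 0.049 in limma, which would bring the higher calls to 8, and without low glutamine replicate 2 it was 0.20 (adjusted p = 0.045). Under a common sum, a common sum without Rn45s and quantile normalization Hsp90b1 was called higher at 0.28, 0.30 and 0.43 (limma, adjusted p = 0.0028, 0.0014 and 1.3e-04).

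Dnajb9, which encodes ERdj4, a BiP cofactor and a target of XBP1, was the chaperone gene with the largest fall. It stood at 16.1, 14.9 and 17.7 RPKM in control libraries and at 9.72, 9.46 and 11.4 RPKM in low glutamine libraries. Its groups were far apart, with low glutamine libraries at 62.8% of the control mean (−0.62 ± 0.08, limma adjusted p = 1.3e-05). Sdf2l1, an ER cochaperone that works with DNAJB proteins, went the other way. It stood at 18.2, 18.0 and 16.6 RPKM in control libraries and at 20.2, 19.9 and 20.5 RPKM in low glutamine libraries. The rise of Sdf2l1 by 0.19 ± 0.05 showed no overlap between groups (limma, adjusted p = 0.0074).

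Lower calls were also made for Hyou1 (the large HSP70 that exchanges the nucleotide of BiP), Dnajb11 (ERdj3) and the secreted stress protein Manf, with log2 fold changes of −0.23, −0.23 and −0.25. Hyou1 and Dnajb11 did not overlap between groups, whereas Manf did. Without control replicate 3, or low glutamine replicate 2, Manf had an adjusted p of 0.068 and 0.070 in limma. Under a common sum, a common sum without Rn45s and quantile normalization, Hyou1 had no call (adjusted p in limma 0.085, 0.19 and 0.12), nor had Manf (0.15, 0.25 and 0.066). Dnajb11 lost its call under a common sum without Rn45s (−0.080, limma adjusted p = 0.086). Dnajc3, the BiP cofactor p58IPK, ranged from 20.9 to 22.9 RPKM in control libraries and from 19.5 to 20.3 RPKM in low glutamine libraries and had no call (limma, adjusted p = 0.075, and 0.042 without control replicate 3). With median-of-ratios scaling Dnajc3 was called lower (−0.15, limma adjusted p = 0.0070). Creld2, an ER stress gene with disulfide isomerase activity, was at 13.2 ± 0.12 and 13.5 ± 1.51 RPKM, also with no call (limma, adjusted p = 0.84, and 0.023 under a common sum without Rn45s).

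The lectin chaperones, which hold newly glycosylated proteins, had no call in either direction. Calr (calreticulin) was at 321 ± 3.93 RPKM in control libraries and 326 ± 16.1 RPKM in low glutamine libraries (SD, n = 3). Canx (calnexin) was at 139 ± 5.97 and 134 ± 3.48 RPKM. The log2 differences were 0.02 ± 0.06 for Calr and −0.05 ± 0.06 for Canx (SE). Quantile normalization gave 0.33 and 0.20, with both called higher, and a common sum with and without Rn45s gave 0.15 and 0.18 for Calr, called higher, and 0.073 and 0.10 for Canx, without a call.

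**Figure D2:**
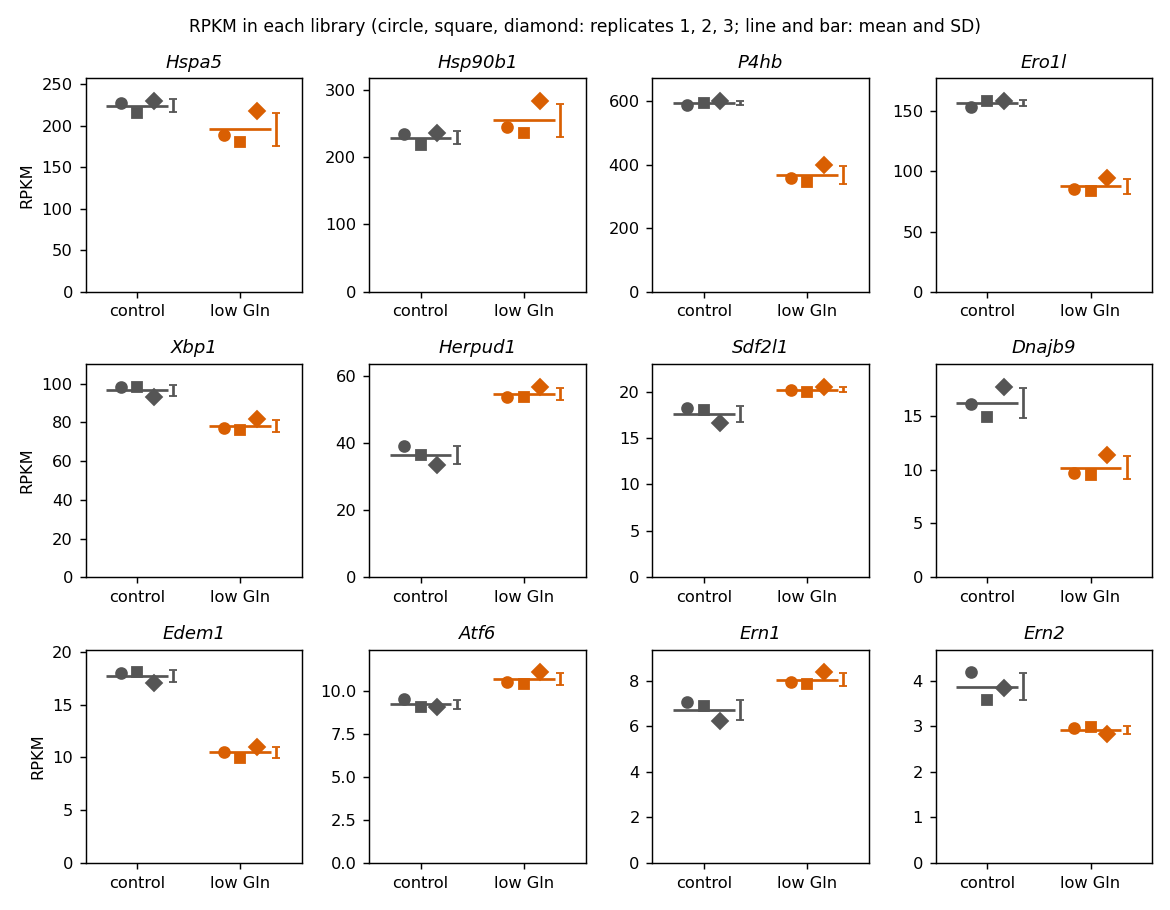
RPKM in each library for 12 of the genes, control in grey and low glutamine (low Gln) in orange, each axis from 0, with the mean and SD of 3 libraries beside the points. Low glutamine libraries of P4hb (345 to 399 RPKM) and Ero1l (83.4 to 94.5 RPKM) lie well below their controls, while 1 low glutamine library of Hspa5 (217 RPKM) lies among the controls.

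The disulfide enzymes held the genes with the largest fall in absolute level. Ero1l, which encodes the oxidase ERO1 alpha that passes oxidising power to protein disulfide isomerases and is also known as a hypoxia-responsive gene, stood at 154, 158 and 158 RPKM in control libraries and at 85.1, 83.4 and 94.5 RPKM in low glutamine libraries. Every low glutamine library of Ero1l lay far below every control library, at 55.9% of the control mean (−0.83 ± 0.06, limma adjusted p = 1.4e-07). P4hb, the protein disulfide isomerase that ERO1 oxidises and also a subunit of prolyl 4-hydroxylase, a 2-oxoglutarate-dependent enzyme, was the most abundant of the 33 genes in both groups. It stood at 590, 596 and 600 RPKM in control libraries and at 358, 345 and 399 RPKM in low glutamine libraries. P4hb thus fell to 61.7% of the control mean with no overlap (−0.70 ± 0.07, limma adjusted p = 2.4e-06).

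These 2 genes carried most of the loss in summed level as deposited, where the whole RPKM sum was also lower in low glutamine libraries. The 33 genes summed to a mean of 2627 RPKM in control libraries and 2306 RPKM in low glutamine libraries, a difference of −321 RPKM, of which P4hb and Ero1l made up −297 RPKM. Without them the sums were 1875 and 1852 RPKM.

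Pdia6, Pdia3 and Pdia4 did not follow P4hb. Of 18 other foldases and cofactors outside the list, 7 were called higher and 5 lower, beside 36.1% and 30.3% of all genes tested. Among them, the disulfide isomerase Agr2 fell (log2 −1.08), as did Txndc11 (−0.29) and Erp44 (−0.18). Dnajc10 (0.58), Txndc12 (0.36), Pdia5 (0.33) and Txndc5 (0.25) rose. Pdia6 rose from 83.2 ± 1.35 to 97.0 ± 9.02 RPKM (SD, n = 3; log2 0.22, limma adjusted p = 0.014) and Pdia3, which works with the lectin chaperones, from 183 ± 3.72 to 205 ± 15.8 RPKM (log2 0.16, limma adjusted p = 0.049). Pdia4 was at 51.9 ± 1.71 and 57.2 ± 4.40 RPKM and had no call (limma, adjusted p = 0.076, and 0.047 without low glutamine replicate 2), but was called higher at 0.26, 0.29 and 0.28 under a common sum, a common sum without Rn45s and quantile normalization. Pdia3 kept its call in 10 of 17 other settings, and its adjusted p in limma was 0.10, 0.15, 0.072, 0.079 and 0.060 without control replicates 1, 2 or 3 or low glutamine replicates 1 or 3 in turn. Pdia6 lost its call without control replicate 1 (limma, adjusted p = 0.055). The log2 ratio of Pdia6 to P4hb was −2.82 ± 0.01 in control and −1.91 ± 0.02 in low glutamine libraries (SD, n = 3; exact permutation p = 0.10, adjusted 0.11). Ero1lb, the second ERO1 oxidase, was a low gene that fell from 2.71 ± 0.05 to 2.19 ± 0.25 RPKM (log2 −0.22, limma adjusted p = 0.011), and lost the call under a common sum with and without Rn45s (limma, adjusted p = 0.057 and 0.086). The log2 ratio of Ero1l to Ero1lb was 5.41 in control and 4.80 in low glutamine libraries (exact permutation p = 0.10, adjusted 0.11), and that difference of −0.61 went to −0.20 after quantile normalization.

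Among the degradation genes, 5 of the 8 tested fell and 2 rose, beside 30.3% called lower and 36.1% called higher among all genes tested. Herpud1, a membrane scaffold of the degradation complex and a target of several arms of the stress response, had the largest rise of the 32 genes. It stood at 39.2, 36.6 and 33.6 RPKM in control libraries and at 53.8, 53.7 and 56.8 RPKM in low glutamine libraries. All low glutamine libraries of Herpud1 lay above all controls, at 150.3% of the control mean (0.58 ± 0.06, limma adjusted p = 4.8e-06). Edem1, a lectin that hands misfolded glycoproteins to degradation and a target of XBP1, stood at 18.0, 18.0 and 17.1 RPKM in control libraries and at 10.5, 9.95 and 10.9 RPKM in low glutamine libraries. Edem1 fell with no overlap to 59.1% of the control mean (−0.71 ± 0.05, limma adjusted p = 1.9e-07).

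Its relatives took different courses. Edem2, the mannosidase that starts glycan trimming, rose from 21.4 ± 0.61 to 25.4 ± 0.45 RPKM (log2 0.24, limma adjusted p = 0.0011), and Edem3 fell from 11.6 ± 0.25 to 8.91 ± 0.41 RPKM (log2 −0.34, limma adjusted p = 9.4e-05). The log2 ratio of Edem1 to Edem2 went from −0.26 ± 0.08 to −1.21 ± 0.04 (SD, n = 3; exact permutation p = 0.10, adjusted 0.11). The same test gave p = 0.10 for each of the other pairs except Pdia4 and Pdia3, whose ratio overlapped between groups (exact permutation p = 0.20). Where the genes of a pair lay apart in opposite directions (Ern2 and Ern1, for example), that alone fixed the permutation p at 0.10. With Derl3 below the level for testing, its ratio differences to Derl1 and Derl2 ranged from 0.42 to 1.77 and 0.15 to 1.48 across settings.

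The ubiquitin ligase of the degradation complex and its adaptor fell together. Syvn1 (HRD1) was at 13.9 ± 0.96 RPKM in control libraries and 9.51 ± 0.31 RPKM in low glutamine libraries (log2 −0.50, limma adjusted p = 1.0e-05), and Sel1l, which stabilises it, at 24.3 ± 0.45 and 18.9 ± 0.80 RPKM (log2 −0.35, limma adjusted p = 7.6e-05). Of the derlins, membrane proteins of the exit route, Derl1 fell from 37.0 ± 2.21 to 27.7 ± 1.08 RPKM (log2 −0.40, limma adjusted p = 6.7e-05). Derl2 was at 10.5 ± 0.26 and 9.62 ± 0.13 RPKM with no call (limma, adjusted p = 0.059, and 0.040 or 0.043 without control or low glutamine replicate 3), and was called lower with median-of-ratios scaling (−0.15) and quantile normalization (−0.14). Derl3, known from secretory cells, was below the level for testing, at 0.095, 0.021 and 0.030 RPKM in control libraries and 0.24, 0.23 and 0.37 RPKM in low glutamine libraries. Syvn1 shares 89 bases with Mrpl49 (23.8 RPKM), Derl2 274 bases with Mis12 (13.2 RPKM) and Hspa5 1921 bases with Rabepk (5.50 RPKM). Without strand information in the sources used here, reads in those overlaps cannot be told apart.

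Of the translocon subunits, Sec61a1, the channel itself, fell from 93.2 ± 1.25 to 79.1 ± 3.72 RPKM (log2 −0.23, limma adjusted p = 0.0027). It had no call under a common sum without Rn45s (−0.081, limma adjusted p = 0.052) or after quantile normalization (−0.030, limma adjusted p = 0.41). Sec61b, its small partner, was at 86.9 ± 6.55 and 82.5 ± 1.67 RPKM, overlapped between groups and had no call (limma, adjusted p = 0.33, and 0.047 without control replicate 3).

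The order of the levels hardly changed between media. P4hb, Calr, Hsp90b1 and Hspa5 together held 52.1% of the summed RPKM of the 33 genes in control and 49.6% in low glutamine libraries. Across the 32 tested genes, the ranks of the group means correlated at 0.97 (Spearman, a description across genes). The share of the 33 genes in the whole RPKM sum was 0.701% to 0.730% in control and 0.668% to 0.713% in low glutamine libraries, which overlap.

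Genes with the promoter elements printed above were found among the higher, the lower and the uncalled genes. Calls among all genes tested were 36.1% higher and 30.3% lower. Of the 10 genes with an ERSE, 9 were tested, and 1 was higher (Pdia6), 3 were lower (Hspa5, Ero1lb, Syvn1) and 5 had no call (Calr, Canx, Creld2, Dnajc3, Hsp90b1). Their median log2 fold change was −0.05, and that of the 17 tested genes whose promoter lacks the motif was −0.11 (5 higher, 8 lower). Of the genes with an ERSE-II, Herpud1 was higher and Dnajb11 lower. Only 4 tested genes outside the list carried an ERSE. Of those, Hnrnpa3 was higher (0.60), Xlr3a (−1.55, X-linked) and Alg12 (−0.26) were lower and Pan2 had no call.

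The scaling of the libraries changed the calls of several smaller differences. The low glutamine libraries summed to fewer RPKM than the controls, and rescaling to a common sum moved the median of all genes from 0.03 to 0.14, or to 0.17 when Rn45s, at 3550 ± 2712 RPKM in control libraries and 9606 ± 2736 RPKM in low glutamine libraries, was left out. The share of higher among all calls then went from 54.4% to 69.0% and 71.6%. The median of the folding genes lay below that of all genes by 0.18 in both, by 0.19 as deposited and under median-of-ratios scaling, and by 0.06 after quantile normalization. Of the 23 called genes, 15 kept their call and direction in every setting in which they were tested, a count not made for all genes. The 15 were Ern2, Xbp1, Dnajb9, P4hb, Ero1l, Edem1, Edem3, Syvn1, Sel1l and Derl1, lower, and Atf6, Ern1, Sdf2l1, Herpud1 and Edem2, higher.

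**Figure D3:**
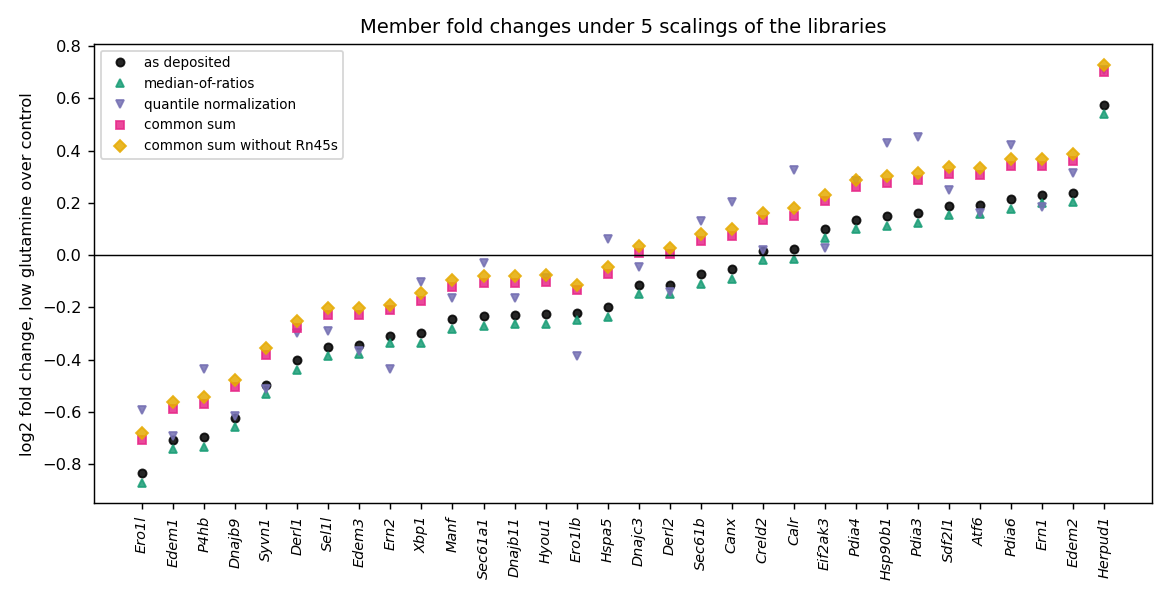
Log2 fold change (low glutamine over control) of each of the 32 tested genes under 5 scalings of the libraries, ordered by the value as deposited. Ero1l, Edem1, P4hb and Dnajb9 stay below 0 and Herpud1 above 0.5 under all 5, while Hspa5 goes from −0.20 as deposited to 0.06 under quantile normalization.

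Replicate 3 stood apart from replicates 1 and 2 in these genes. As deposited, low glutamine replicate 3 had the highest value of its group for 28 of the 32 genes (87.5%), beside 66.6% of all genes tested. With median-of-ratios scaling, which sets the typical gene level across libraries, it was highest for 19 of the 32 (59.4%) beside 41.8% of all genes, and control replicate 3 for 19 of the 32 beside 38.6%. Manf, Dnajb9, Hspa5 and Hsp90b1 were above the mean of low glutamine replicates 1 and 2 by 23.3%, 18.5%, 17.9% and 17.6% in replicate 3 as deposited. The deviation of replicate 3 from replicates 1 and 2 was above 0 in both media for 19 of the 32 genes (59.4%, beside 36.1% of all genes), and it correlated between media at 0.67 over the 32 genes and 0.57 over all genes (Pearson, across genes that share the same 6 libraries). Control replicate 3 was also the least deep library. Rn45s was at 1898, 2074 and 6680 RPKM in control replicates 1 to 3 and at 9778, 12252 and 6788 RPKM in low glutamine replicates 1 to 3. The cause of the deviation of replicate 3 was not tested. By replicate number, the median difference of the 32 genes was −0.21, −0.16 and −0.08 for numbers 1, 2 and 3, and that of all genes 0.00, −0.01 and 0.11. Without replicate 3 of both groups, an alternative chosen after seeing the data, the median was −0.20.

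**Figure D4:**
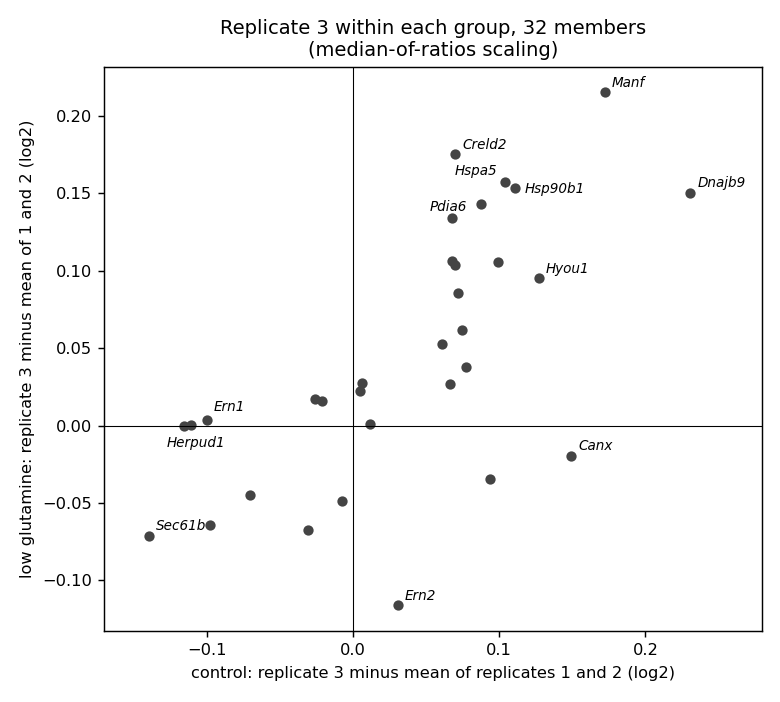
Deviation of replicate 3 from the mean of replicates 1 and 2 (log2, median-of-ratios scaling), control on the horizontal and low glutamine on the vertical axis, 1 point for each of the 32 tested genes. Manf, Dnajb9, Hspa5, Hsp90b1 and 15 other genes lie above 0 on both axes.

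The other ER genes, 75 genes of folding, degradation, glycosylation, translocation and stress signalling, all tested, also split, with 18 higher, 23 lower and 34 without a call (54.7% called, median −0.03), beside 66.4% called, 36.1% higher and 30.3% lower among all genes tested. These background shares also stand beside the counts of the sublists that follow. Rescaling to a common sum turned this to 37 higher and 15 lower, so no direction is read for the 75 as a whole. Over all genes, that rescaling took the share of higher among the calls from 54.4% to 69.0%. The ATF4 and CHOP arm, which PERK and the amino acid sensor GCN2 share, held 4 rises and 4 falls among 10 genes. Chac1, a glutathione-degrading enzyme, rose from 2.89 ± 0.33 to 11.2 ± 0.31 RPKM (mean ± SD, n = 3, as for the genes that follow), and Atf3, a stress-induced factor, from 3.67 ± 0.03 to 6.12 ± 0.44 RPKM. Ddit3, which encodes CHOP, fell from 14.9 ± 0.61 to 5.78 ± 0.15 RPKM.

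Of 8 other transducers, 3 were higher and 2 lower. Wfs1, a calcium regulator of the ER, fell from 9.42 ± 0.27 to 4.81 ± 0.11 RPKM and Tmbim6, an inhibitor of ER stress cell death, from 242 ± 5.49 to 184 ± 7.34 RPKM. Creb3l2, an ATF6-like factor, rose from 4.79 ± 0.44 to 7.15 ± 0.15 RPKM. Of 18 other foldases and cofactors, 7 were higher and 5 lower. Agr2, the disulfide isomerase that mucin production requires, fell from 140 ± 9.35 to 65.6 ± 2.74 RPKM, along with the goblet markers above. Serp1, a translocon-associated stress protein, fell from 118 ± 5.50 to 86.7 ± 9.19 RPKM. Dnajc10, a disulfide reductase that serves degradation, rose from 14.0 ± 0.38 to 21.4 ± 1.07 RPKM.

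Of 13 other degradation factors, 1 was higher and 4 lower. Aup1 and Vimp (selenoprotein S), membrane partners of the degradation complex, fell by 0.47 and 0.40 on the log2 scale, and the glycan-binding Os9 rose by 0.17. In glycosylation and glycan quality control, 3 of 11 were higher and 2 lower. The oligosaccharyltransferase subunits Stt3b and Ostc fell by 0.34 and 0.32, and Uggt1, the folding sensor that sends glycoproteins back to calreticulin and calnexin, rose by 0.31. Among 15 other translocation genes, 0 were higher and 6 lower, led by Spcs2, a signal peptidase subunit (−0.40), Tram1 (−0.31) and Ssr4 (−0.22, X-linked). As for the folding genes, the values and calls are limma's with adjusted p under 0.05.

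Chaperones of the cytosol served as a comparison outside the ER. Of 14, 12 were tested, and 3 were higher, 1 lower and 8 without a call (33.3% called, beside 66.4% of all genes, median 0.01). Hspa4l, an HSP110-type chaperone, rose from 10.5 ± 0.54 to 30.0 ± 1.85 RPKM and Hsp90aa1, the inducible HSP90, from 163 ± 4.04 to 215 ± 15.3 RPKM. Bag3, a cofactor of HSP70, fell from 16.9 ± 0.89 to 11.1 ± 0.32 RPKM.

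**Figure D5:**
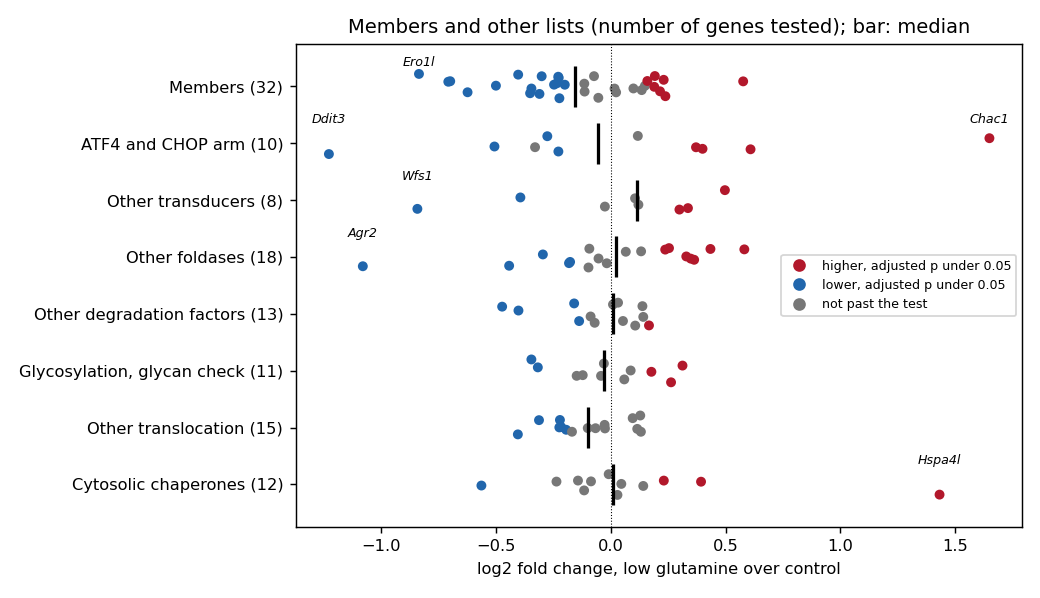
Log2 fold changes (low glutamine over control) of the 32 tested folding genes and of 7 comparison lists, 1 point per gene tested, with a black bar at each median and colours for the call. The medians lie between −0.16 and 0.11, and Chac1 (1.65), Hspa4l (1.43), Ddit3 (−1.23) and Agr2 (−1.08) lie farthest out.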

How the data were processed

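Per the labels' protocols, libraries were made from total RNA with TruSeq kits, and neither strandedness nor the counting rule is stated. The authors deposited RPKM values, 1 column per library and 24956 rows, each a gene symbol. Tools listed in the submitters' processing notes, without role or order, are Partek, HISAT2 2.0.4 and CASAVA 1.8, and the build is mm10.

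From these values, limma 3.58.1 (R 4.3.3, empirical Bayes with a variance trend, two-sided, Benjamini-Hochberg, threshold 0.05) compared 3 low glutamine with 3 control libraries on log2(RPKM + 1), with a pseudocount of 1 RPKM that understates changes of low genes. Genes with a mean below 1 RPKM, 13874 in number, were not tested. No count test was run, since RPKM are not counts, and transcript lengths were used only for the depth estimate. Depth was estimated from single-exon genes as the value at which most low values came out as whole reads within 0.02. That share was 75.8% to 83.0%, and since the depth was chosen to maximise it, it does not check the estimate. Family ratios were tested by exact permutation. The model was tested on simulated data.

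The members and all gene lists were chosen with earlier results of these data known. Values in every library are given for the sensors and factors, for members past the test with an absolute log2 fold change of at least 0.58 and a mean of at least 5 RPKM in the higher group, and for Hspa5, Hsp90b1, Dnajb9, Herpud1 and Sdf2l1. From each other list the 3 past the test with the largest change and at least 5 RPKM were named. Genes named beyond this rule were chosen from their values.

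Replicate numbers are the same in both groups. Deviations of same-numbered libraries from their group means correlated at 0.15, 0.25 and 0.57, all above 0.1, so the numbers were taken as pairs for an alternative fit. With numbers 1 and 2 exchanged the correlations were 0.20 and 0.36, so pairs 1 and 2 rest on the labels. Deviations from a group mean cancel out within the group, so these correlations are not independent and cannot decide whether the libraries are pairs. Alternatives covered the pseudocount, the filter, the scaling, the variance trend, the replicate block and each library left out. Promoters and gene bounds are RefSeq GRCm38.p6, 1-based. Tables and plots were made in Python 3.11.15 (matplotlib 3.10.9, numpy 2.4.6, pandas 2.3.3).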

Additional observations from a re-analysis of the deposited data

How the results depend on the processing

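The fold changes of the 32 tested genes were recomputed under up to 17 alternatives each, 542 values in all. Of these, 29 lost a call with the direction kept and 26 gained one with the direction kept. The sign changed in 17 values. After quantile normalization, Hspa5 (0.062) lost its call and Canx (0.20) gained one with the sign turned, and the other 15 values, of Dnajc3, Creld2, Calr, Canx, Derl2 and Sec61b, had no call on either side. The count of folding genes higher was 11 under a common sum, 12 under a common sum without Rn45s and 11 after quantile normalization, against 7. Over all genes, higher calls were 69.0%, 71.6% and 52.9% of the calls in these settings, against 54.4% as deposited. The count of folding genes lower was 10 without Rn45s, against 16, and lower calls over all genes were 28.4%, against 45.6%. The median of the folding genes, −0.16, was −0.10 with a pseudocount of 5 RPKM and −0.11 with no filter and with a minimum mean of 5 RPKM. It was −0.035 under a common sum, −0.038 after quantile normalization and −0.0086 under a common sum without Rn45s. Leaving out 1 library at a time it ranged from −0.20 (without low glutamine replicate 3) to −0.13 (without low glutamine replicate 2), and it was −0.20 without replicate 3 of both groups. For the other ER genes, the count higher was 37, 41 and 31 under a common sum, a common sum without Rn45s and quantile normalization, against 18. The count lower was 15 and 14 under the first 2 of these and 35 without replicate 3 of both groups, against 23. Lower calls over all genes were 31.0%, 28.4% and 51.8% of the calls in those settings, against 45.6% as deposited. The cause was not tested.

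With the replicate number as a block, Hsp90b1 alone among the 32 genes changed its call, to higher (0.15, limma adjusted p = 0.049), for 8 higher and 16 lower. Derl3, at most 0.37 RPKM, was not tested except without a filter. Leaving out a library leaves 2 against 3, where an exact permutation test of the family ratios cannot go below 0.10, and those ratios were then given as values with no test. The planned description of protein features was not run.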
